A study of Ulva lactuca with 4 samples.

Results

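In the green seaweed Ulva lactuca, whose thalli are thin sheets, 299 of 105451 assembled contigs carried many more reads after 24 h of desiccation than in submerged thalli and lay near the submerged level again at 36 h and 72 h. A contig is a transcript sequence, or a piece of one, put together from the reads without a genome. A contig belonged to this group when it had at least 50 scaled counts at 24 h, a ratio of at least 4 at 24 h to the control, and ratios between 0.5 and 2 at both 36 h and 72 h. Scaled counts are reads divided by a size factor of each library, and every ratio to the control was taken after adding 1 to both scaled counts, unless a 95% interval stands beside it. The choice used the read counts of all 4 libraries, so the levels below describe the contigs that were picked and test nothing.

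The 4 libraries came from thalli, 1 library for each condition. Desiccated thalli were kept at 20% moisture for 24 h, 36 h or 72 h, and the control thalli were always under water. Neither the sampling time of the control relative to the desiccated thalli nor the number of thalli behind a library is stated in the labels. The study asked which genes change in expression while the alga dries. With 1 library per condition there was no spread between replicates to set a difference against, and no p-value was computed. The libraries held between 52643595 and 74243310 reads counted on contigs, the most at 24 h.

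Thalli of Ulva grow between the tide lines and lose most of their water when the tide leaves them exposed. Drying concentrates the cell contents, interrupts photosynthesis and favours the formation of reactive oxygen species. Intertidal algae are known to meet it with antioxidant enzymes, chaperones and compatible solutes, and transcripts that are made early can decline again while the stress lasts. The tables used here name contigs by their place in the assembly and do not pair them with genes, so no role is given to any contig below. The c and g numbers in a contig's name give its cluster, the assembly's unit nearest to a gene. The labels and headers do not say how reads that matched several contigs were counted, so contigs of a cluster may share reads and are not independent of each other. Counts were not divided by contig length, so read numbers are compared between libraries for a contig and not between contigs.

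At the 24 h time point the median of the 299 contigs was 310.9 scaled counts, with quartiles of 128 and 1192 and a range from 50.6 to 270979. In the control the median was 41.8, with quartiles of 18.1 and 209.7. At 36 h it was 55.9 (quartiles 20.9 and 269.7), and at 72 h 50.6 (quartiles 18.0 and 277.5). The median ratio of 24 h to the control was 5.62, with quartiles of 4.62 and 7.76. With nothing added to the scaled counts, and with 3 reads in place of a control count of 0, the median was 5.74. A minimum of 50 scaled counts in either library was met by 41478 contigs, of which 8.66% were at least 4-fold higher at 24 h than in the control. The 299 contigs were chosen on that contrast, so this share is given for scale alone. They made up 8.33% of the 3591 contigs that passed it.

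**Figure D1:**
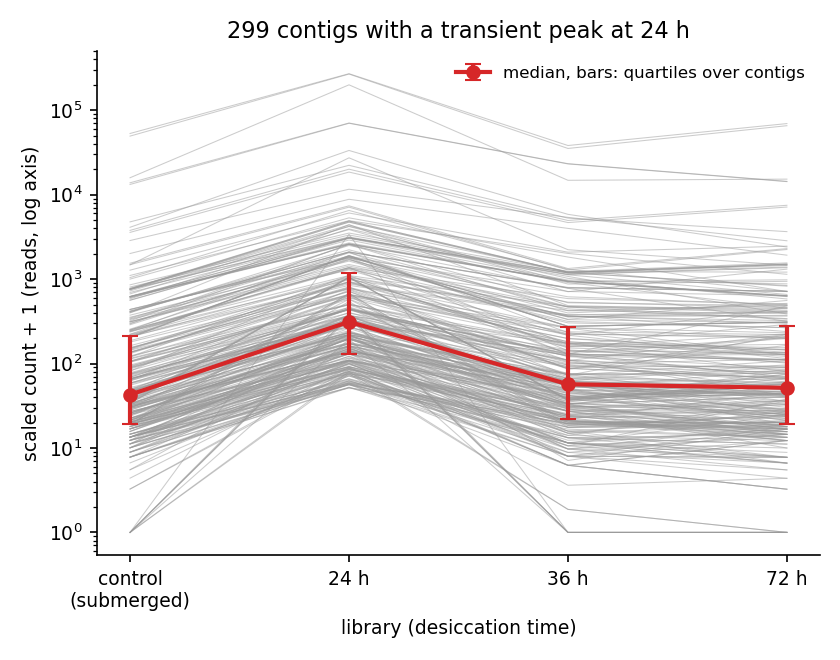
Scaled count + 1 (reads, log axis) of each of the 299 contigs in the control, 24 h, 36 h and 72 h libraries, with 1 grey line per contig and the median and quartiles over contigs in red. The median is 310.9 scaled counts at 24 h and between 41.8 and 55.9 in the other libraries.

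Most of the contigs lay within 2-fold of the limit of 4. The ratio at 24 h was below 5 for 107 contigs, from 5 to below 8 for 120, from 8 to below 16 for 47, and 16 or more for 25. By level, 57 contigs had under 100 scaled counts at 24 h, 157 had 100 to below 1000, 74 had 1000 to below 10000, and 11 had 10000 or more. The median ratio differed little between these classes of level, at 5.76, 5.87, 5.41 and 5.30 from the lowest class to the highest. In the control, 136 of the 299 reached 50 scaled counts. The member nearest to the limit was c23177_g1_i6, with 185 reads in the control, 947 at 24 h, 419 at 36 h and 266 at 72 h. Its 24 h ratio was 4.01. Just outside it lay c23177_g1_i5 of the same cluster, with 196, 999, 438 and 329 reads in the same libraries and a ratio of 3.99. The 2 contigs are alike within counting error in their 24 h ratios, with 95% intervals of 3.43 to 4.73 and 3.43 to 4.69. Within 0.2 of the limit there were 27 contigs inside and 46 outside. On the later limits, the highest members had ratios of 1.998 at 36 h and 1.999 at 72 h, and the nearest contigs outside had 2.01 and 2.002. The lowest member had 50.6 scaled counts at 24 h, and the nearest contig below the count limit had 48.9.

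The 299 contigs together took 1.93% of the reads at 24 h (1434650 reads, 95% interval 1.929 to 1.936), against 0.356% in the control (187633 reads, 0.355 to 0.358). They took 0.371% at 36 h (263644 reads, 0.370 to 0.373) and 0.443% at 72 h (236256 reads, 0.442 to 0.445). These intervals are exact binomial ones and, as all intervals here, cover counting error only, not the difference between thalli or duplicated PCR reads. A few contigs held most of these reads. The 5 contigs with the most scaled counts at 24 h took 69.0% of the group's reads there. Without them the other contigs took 0.598% of the reads at 24 h, against 0.112% in the control, and 0.154% at 36 h and 0.144% at 72 h. Without the first 2 alone, the share was 0.218% at 72 h and 0.253% at 36 h, so the higher share at 72 h than at 36 h came from those 2.

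The contigs with the most scaled counts at 24 h were c28079_g1_i3 and c28079_g1_i2, which belong to 1 cluster of 4 contigs. The contig c28079_g1_i3 had 46927 reads in the control, 305077 at 24 h, 43782 at 36 h and 61852 at 72 h. Its scaled count was 5.11-fold the control's at 24 h (95% interval 5.06 to 5.16), 0.720-fold at 36 h (0.711 to 0.730) and 1.31-fold at 72 h (1.29 to 1.33). It was thus lower at 36 h than in the control and higher at 72 h than in the control, both by more than counting error. The contig c28079_g1_i2 had 43698, 302034, 40411 and 58389 reads in the same order, within 10 percent of the first contig in every library, and was 5.43-fold the control at 24 h (5.38 to 5.49). Both partners in the cluster lay outside the limits. The 24 h ratio of c28079_g1_i4 was 3.92, and that of c28079_g1_i1 was 3.33, with a 36 h ratio of 0.440 that was also outside its band. The cluster sum met all limits, with ratios of 4.89 at 24 h, 0.66 at 36 h and 1.22 at 72 h.

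Several contigs with many reads, singled out after their values were seen, were alone in their clusters, so no reads of theirs could have come from another contig of the same cluster. The contig c42711_g1_i1 had 14034 reads in the control, 225121 at 24 h, 16958 at 36 h and 13595 at 72 h. It was 12.6-fold the control at 24 h (95% interval 12.4 to 12.8). With this scaling it was within 10 percent of the control later, at 0.933-fold (0.912 to 0.954) and 0.963-fold (0.940 to 0.986). Distances this small from the control depend on the scaling. The contig c28294_g1_i1 had 1303, 30752, 2553 and 1301 reads in the order of the libraries, and was 18.5-fold the control at 24 h (17.5 to 19.6). It stood at 1.51-fold at 36 h (1.41 to 1.62) and at 0.993-fold at 72 h (0.918 to 1.07). With this scaling, the interval held the control level in the 72 h library and not in the 36 h library. The contig c50694_g1_i1 had 3635, 37591, 6701 and 2134 reads, 8.13-fold the control at 24 h (7.85 to 8.41). It stood above the control at 36 h, 1.42-fold (1.37 to 1.48), and below it at 72 h, 0.584-fold (0.553 to 0.616). These contigs had in common a single high library, and they differed in whether the level at 36 h and 72 h was above, at or below that of the control.

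**Figure D2:**
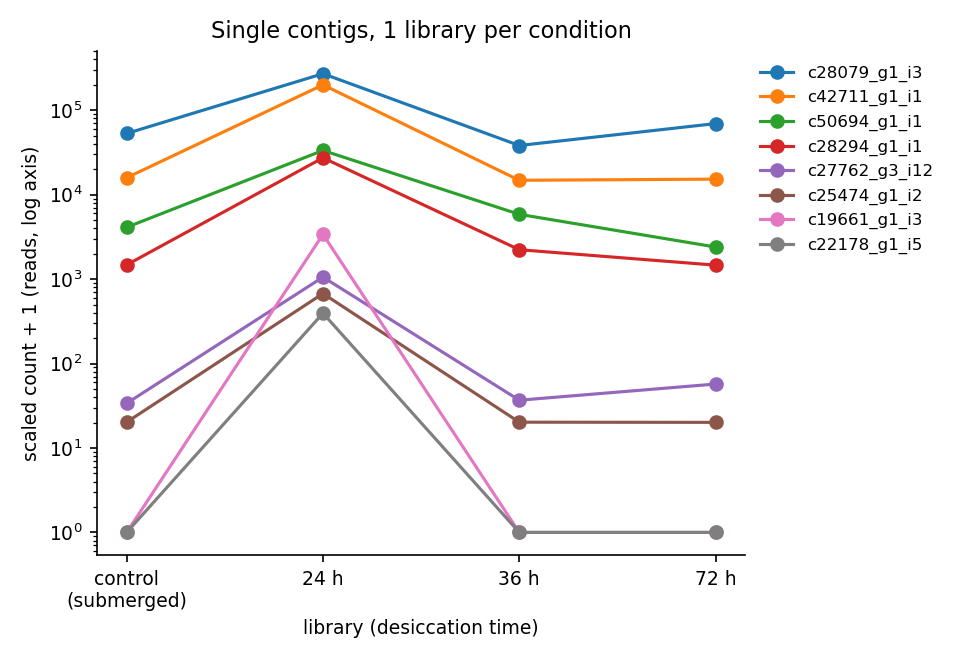
Scaled count + 1 (reads, log axis) of 8 named contigs in the control, 24 h, 36 h and 72 h libraries, 1 point per library. Each is highest at 24 h, and c19661_g1_i3 and c22178_g1_i5 have 0 reads in the other libraries.

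The contigs furthest from the control had almost no reads outside the 24 h library. For c19661_g1_i3 the 24 h library held 3808 reads, and the control, 36 h and 72 h libraries held 0. With 3 reads in place of each 0, its 24 h level was at least 997-fold higher than in the control, and relative to 24 h it was lower by at least 1292-fold at 36 h and by at least 1003-fold at 72 h. The contig c22178_g1_i5 had 443 reads at 24 h and 0 in each other library, at least 116-fold higher than in the control. These 2 contigs led the ranking by the interval's lower bound in all 3 contrasts, 24 h with the control, with 36 h and with 72 h. All 5 contigs of the cluster c22178_g1 were members, with 218 to 443 reads each at 24 h and 0 reads elsewhere. Their summed level was 1657 scaled counts at 24 h.

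In all, 9 members from 4 clusters had no more than 3 reads in any library but that of 24 h. A further 10 contigs of that kind missed the limits on 36 h or 72 h through 1 to 3 reads. Among them were c19661_g1_i1 and c19661_g1_i2, the cluster partners of c19661_g1_i3, with 4017 and 4001 reads at 24 h. A single control read and 0 reads at 36 h gave each of them a ratio of 0.469 at 36 h, below 0.5. At so few reads the limits on 36 h and 72 h depend on the 1 that was added to each scaled count and say little about a steady level. Of the 299 contigs, 8 had 0 reads in the control, 6 at 36 h and 8 at 72 h.

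Between these extremes, the cluster c25474_g1 had low but countable reads outside 24 h. All 4 of its contigs were members, and c25474_g1_i2 had 17 reads in the control, 758 at 24 h, 22 at 36 h and 17 at 72 h. It was 35.0-fold the control at 24 h (95% interval 21.7 to 60.5), 0.999-fold at 36 h (0.507 to 2.004) and 0.994-fold at 72 h (0.477 to 2.07). The cluster sum was 34.0-fold the control at 24 h and 0.97- and 0.98-fold at 36 h and 72 h.

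By the rule of the group, each contig was about 2-fold lower or more at 36 h and at 72 h than at 24 h. The median contig kept 22.2% of its 24 h scaled count at 36 h, with quartiles of 14.01% and 31.4% and a highest value of 47.8%. At 72 h it kept 19.5%, with quartiles of 12.6% and 27.0% and a highest value of 47.7%. At least 4-fold lower at 36 h than at 24 h were 174 of the 299 contigs (58.2%), where 3.48% of 40776 contigs with enough reads were. At least 4-fold lower at 72 h than at 24 h were 209 (69.9%), where 4.1% of 44430 were. The rule used these libraries too, so the gap to the background is built into the choice.

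Within the band that the rule allowed, the contigs lay towards its upper side. The median ratio to the control was 1.40 at 36 h, with quartiles of 1.09 and 1.68, and 1.16 at 72 h, with quartiles of 0.95 and 1.53. For comparison, 19135 contigs with at least 50 scaled counts at 24 h lay in the same band at both times whatever their 24 h ratio, and their medians were 1.01 at 36 h and 0.95 at 72 h. Above 1 at 36 h were 234 of the 299 contigs (78.3%), against 50.7% of the 19135, and above 1 at 72 h were 193 (64.5%), against 44.3%. The intervals excluded 1 for fewer: at 36 h, 120 contigs lay above it and 19 below, and at 72 h, 82 lay above and 13 below. Such intervals were not taken for the 19135 contigs, so these counts have no share to be set against. The ratios at all 3 times were taken to the same control library, so a control count that is low raises all 3. The part of that in these values was not tested. The mirrored pattern, at least 4-fold lower at 24 h and within the band later, was found for 353 contigs. For these the minimum of 50 scaled counts was asked in any library and not at 24 h. They had medians of 0.76 at 36 h and 0.75 at 72 h, with 75.4% and 77.6% of them below 1.

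The comparison of 72 h with 36 h does not use the control. Of the 299 contigs, 186 (62.2%) were lower at 72 h than at 36 h and 107 were higher, against 59.5% lower among the 19135 contigs of the band. The share was therefore near that of the other contigs in the band. Beyond counting error, 76 contigs were lower at 72 h than at 36 h and 47 were higher. The same count was not made for the 19135 contigs, so it is not known whether this split is particular to the members. The number of contigs lower at 72 h depended on the scaling, with 225 lower and 68 higher when libraries were scaled by the upper quartile. The share of the band's contigs was not taken with that scaling.

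**Figure D3:**
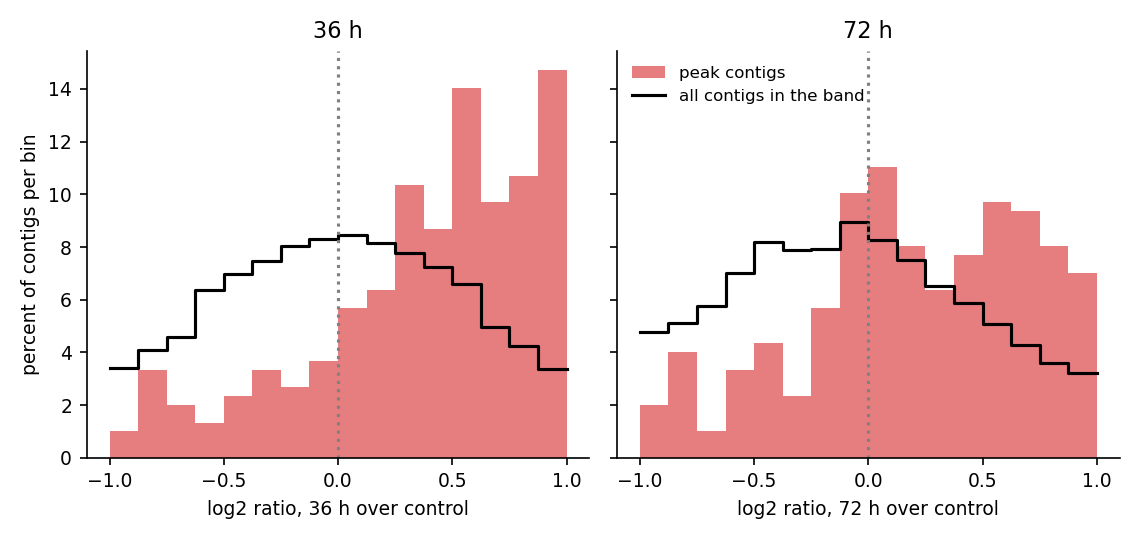
Percent of contigs per bin of the log2 ratio to the control at 36 h (left) and 72 h (right), for the 299 contigs with a peak at 24 h (red bars) and for the 19135 contigs in the same band whatever their 24 h ratio (black line). The red bars lie to the right, with 78.3% of contigs above 0 at 36 h and 64.5% at 72 h, against 50.7% and 44.3% for the black line.

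The 299 contigs lay in 210 clusters. Of these clusters, 107 consisted of 1 contig and 103 of several, up to 23. Cluster size had no part in the choice. Members were alone in their clusters in 35.8% of cases, against 25.7% of the other 3292 contigs at least 4-fold higher at 24 h and 12.3% of all 41478 contigs with enough reads. The median control level was 41.8 scaled counts for members, 33.9 for the other contigs higher at 24 h and 446.5 for all. All contigs had a higher median control level than the members and were less often alone. The 3292 others had a lower median control level than the members and were also less often alone. At 24 h the medians were 310.9 for members, 434.8 for the 3292 others and 430.8 for all, so both lay above the members there. Contig length, which also bears on these levels, was not taken into account. Whether level or length plays a part in being alone was not tested. Among contigs whose control level lay between the members' quartiles, 66.2% of 151 members were in clusters of several contigs, against 77.1% of 12129 other contigs with enough reads. A comparison at like level with the 3292 alone was not made. Members alone in their clusters had a median of 169 scaled counts at 24 h, a median 24 h ratio of 6.21 and a median 72 h ratio of 1.03. Members in clusters of several contigs had medians of 438 scaled counts, 5.41 and 1.26.

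The other 3292 contigs at least 4-fold higher at 24 h did not meet the later limits. The median 24 h ratio was 5.62 for members and 8.77 for these others. A ratio of 16 or more was found for 8.36% of members and 33.6% of the others, and 0 reads in the control for 2.68% of members and 11.7% of the others. From a control count of 0 the limits can be met with at most 1 read at 36 h and 0 reads at 72 h, so the rule itself keeps such contigs out more readily.

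Several members fell into the same cluster in 46 cases, which together held 135 members, and in 26 clusters of several contigs every contig was a member. The cluster c24079_g1 had 6 contigs, all members, and its sum was 1005 scaled counts in the control, 9285 at 24 h, 1335 at 36 h and 1522 at 72 h. The cluster c27952_g4, with 4 contigs that were all members, had sums of 2286, 12615, 2668 and 2879.8. In c26403_g1 both contigs were members, with sums of 27042, 140678, 46421 and 28640.4. It was higher at 36 h than in the control, 1.72-fold, and near it at 72 h, 1.06-fold. Of the 21 clusters with 2 members, 4 had read counts within 10 percent of each other in every library, which contigs that share most of their reads would also give.

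Of the 103 clusters of several contigs, 55 also met the limits with the reads of all their contigs added up. In 26 of the 103 every contig was a member. Their sums added only contigs chosen by the same limits, so the outcome there was largely set by the choice. In the other 48 the sum did not. It was at least 4-fold higher at 24 h but outside the band later in 13 clusters, 2- to 4-fold higher in 20, within 2-fold in 14 and lower than 0.5-fold in 1. The share of a cluster's 24 h reads that lay on its members varied from 0.134% to 100%, with a median of 55.9%. It was under 10 percent in 21 clusters and over 90 percent in 30.

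**Figure D4:**
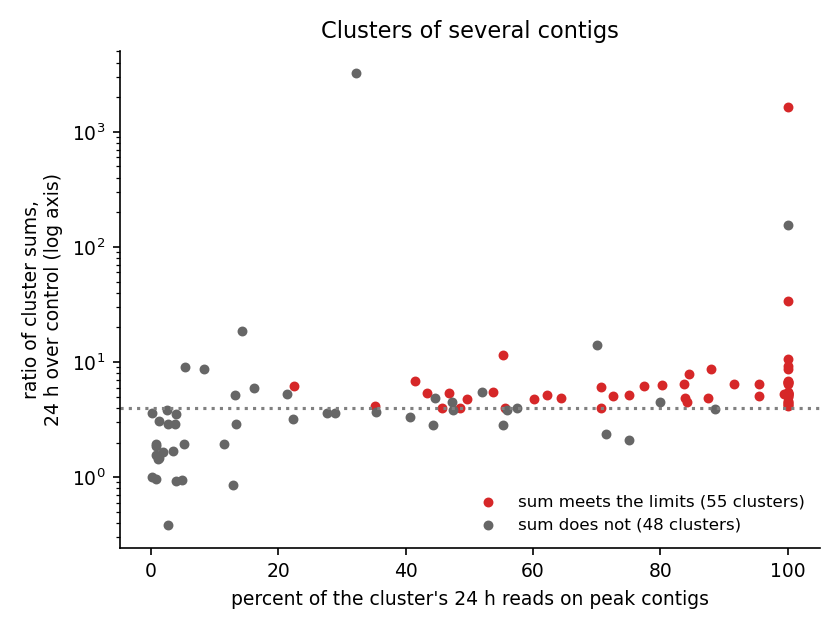
Ratio of cluster sums at 24 h to the control (log axis) against the percent of the cluster's 24 h reads that lie on members, for the 103 clusters of several contigs. Clusters whose sum meets the limits (red, 55) mostly have a large share of reads on members, and the clusters with ratios near 1 are grey and have shares under 20 percent.

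The cluster with the most members shows contigs of 1 cluster that differ from each other. In c27762_g3, 7 of 12 contigs were members. Its contig c27762_g3_i12 had 29 reads in the control, 1188 at 24 h, 41 at 36 h and 50 at 72 h, 32.2-fold the control at 24 h (95% interval 22.3 to 48.3). Of the members, c27762_g3_i9, c27762_g3_i10 and c27762_g3_i3 had 1164 to 1180 reads at 24 h and ratios of 29.1 to 31.1. The contigs c27762_g3_i2, c27762_g3_i6 and c27762_g3_i7 had ratios of 19.7, 7.51 and 7.32. Of the 5 other contigs, c27762_g3_i11 had 635 reads at 24 h, against 4 in the control, but its 20 reads at 72 h gave a ratio of 4.25 there, outside the band. The other 4 were lower at 24 h than in the control. The contigs c27762_g3_i1 and c27762_g3_i4 had 915 reads at 24 h against 1393 in the control, a ratio of 0.516, and 569 against 851, a ratio of 0.526. The contigs c27762_g3_i5 and c27762_g3_i8 had 39 reads at 24 h against 65 in the control, a ratio of 0.479, and 165 against 172, a ratio of 0.755. With all contigs added up, the cluster was 2.39-fold the control at 24 h, 0.69-fold at 36 h and 0.59-fold at 72 h.

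The contigs that shared a cluster with a member without being members themselves numbered 366, of which 328 had at least 50 scaled counts at 24 h or in the control. Their median ratio at 24 h was 2.83, against 0.996 for all 41478 contigs with enough reads and 0.989 for the 36369 of those in clusters of several contigs. At least 4-fold higher at 24 h were 89 of the 328 (27.1%), against 8.66% of all contigs and 7.25% of the 36369. A further 107 (32.6%) were 2- to 4-fold higher. Within 2-fold lay 118 (36.0%), against 60.9% of all. The 89 missed the group at the later times: 29 were over 2-fold above the control at 36 h alone, 12 at 72 h alone and 39 at both, and 9 were below 0.5-fold at 1 of them. Since contigs of a cluster may share reads, these values are not independent of those of the members or of each other. Large clusters gave several of the 89 each, some with nearly the same reads. In c26068_g2, the partners c26068_g2_i8 and c26068_g2_i2 both had 595 reads in the control, and 6865 and 6870 at 24 h. The 89 are thus a count of contigs and not of separate clusters.

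Only 1 of the 328 partner contigs was at least 4-fold lower at 24 h, where 7.9% of all contigs with enough reads were. This was c23304_g2_i1, with 72 reads in the control, 0 at 24 h, 41 at 36 h and 13 at 72 h. With 3 reads in place of the 0, it was at least 30.5-fold lower at 24 h than in the control. Next in the ranking was c26937_g1_i4, with 13 reads in the control and 0 in each other library, at least 5.51-fold lower at 24 h. It was below the minimum of 50 scaled counts.

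**Figure D5:**
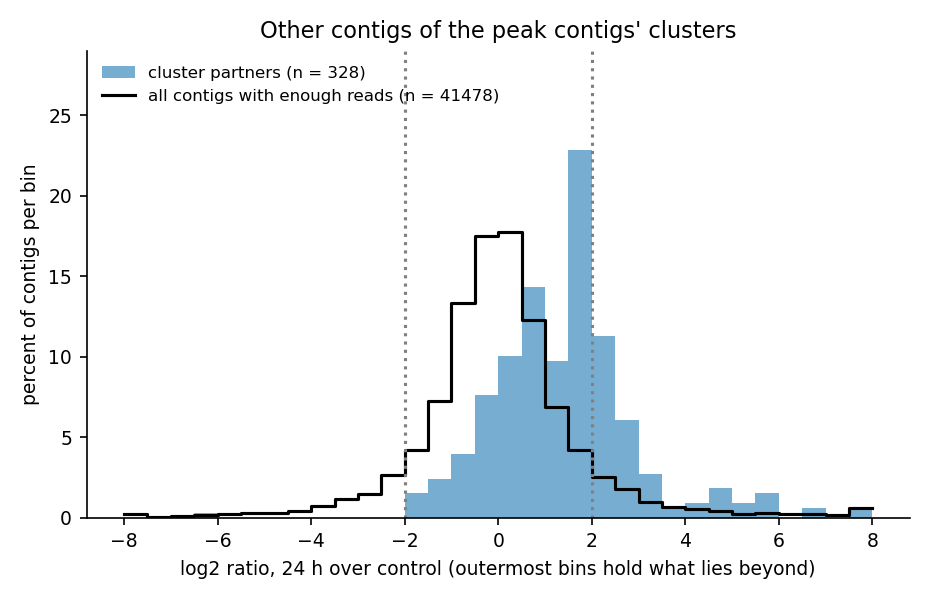
Percent of contigs per bin of the log2 ratio of 24 h to the control, for the 328 partner contigs of members' clusters with enough reads (blue bars) and for all 41478 contigs with enough reads (black line). Dotted lines mark 4-fold lower and 4-fold higher, and 27.1% of the partners lie beyond the right one, against 8.66% of all contigs.

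In the authors' deposited table of 24 h against the control, 5 of the 299 contigs (1.67%) had an adjusted p-value under 0.05, all higher at 24 h. The percentage over all contigs of that table was 0.331%. In the authors' deposited table of 72 h against 24 h, the same 5 had an adjusted p-value under 0.05 and were lower at 72 h, where 0.0182% of all contigs were. These 5 made up 26.3% of the 19 contigs so called in that table. They were c19661_g1_i3, with adjusted p-values of 4.4e-05 against the control and 2.9e-07 for 72 h against 24 h in the authors' deposited tables, and 4 contigs of c22178_g1, with values from 0.0075 to 0.011 and from 0.015 to 0.025. All 5 had 0 reads outside 24 h. By the status column of the authors' deposited tables, 73 contigs (24.4%) were higher at 24 h than in the control, where 1.88% of all contigs were, and 63 (21.1%) were lower at 72 h than at 24 h, where 0.532% were. The status did not require an adjusted p-value under 0.05, which 5 of the 299 had. An unadjusted p-value under 0.05 for 24 h against the control stood in the authors' deposited table for 78 of the 299. The 299 contigs were chosen on the same read counts for a high 24 h ratio and a level near the control at 72 h. The gaps to all contigs in these calls, by p-value and by status, are therefore built into the choice. The status was higher for 20 of the 227 contigs with a ratio below 8, for 32 of the 47 from 8 to below 16, and for 21 of the 25 from 16 up. In the authors' deposited table, c28079_g1_i3 had an adjusted p-value of 1 for 24 h against the control in spite of its 305077 reads. These p-values come from pairs of single libraries, from DESeq per the submitters' processing notes, so no spread between replicates stands behind them.

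Counting error alone placed a limit on how firmly a contig belonged to the group. The 95% interval of the 24 h ratio lay above 4 for 166 of the 299 contigs and above 2 for all 299. The interval at 36 h lay within 0.5 to 2 for 98 contigs and that at 72 h for 115. All 3 intervals lay inside the limits for 47 contigs, which took 1.60% of the reads at 24 h. For the other 252 the depth did not settle on which side of a limit the contig belonged.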

How the data were processed

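RNA of 4 libraries from Ulva lactuca thalli was compared, 1 per condition. Reads were processed with cutadapt, Bowtie2 and DESeq, per the submitters' processing notes. Their versions and settings and the assembler are not stated there. The 5 tables hold read counts per contig, not normalized, as deposited by the authors. Beside them stand scaled values, which per the file headers are a signal, the counts divided by 1 factor per library. The authors also deposited a fold change as a linear ratio, and a p-value and adjusted p-value. Columns of the same library were identical in all 6 repeats between tables.

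Here the size factor of a library was its median ratio to the geometric mean over contigs read in all 4 libraries, and ranged from 0.885 to 1.15. No test across contigs was run. The 95% interval of a ratio is the exact Clopper-Pearson one. A count of 0 was replaced by 3 counts for a limit. Cluster sums add the counts of all contigs that share their c and g numbers. The members and their limits were chosen with earlier results of these data known. Contigs named are those whose interval had the highest lower bound in each contrast with 24 h, those with the most scaled counts at 24 h, the cluster with the most members, the contigs next to the limit and the partner contigs lowest at 24 h. Others were singled out after their values were seen: c42711_g1_i1, c28294_g1_i1, c50694_g1_i1, the remaining contigs of c28079_g1, c19661_g1, c22178_g1 and c27762_g3, and the clusters c25474_g1, c24079_g1, c27952_g4 and c26403_g1. Likeness of profiles over 4 libraries was not ranked, since 4 points order many contigs alike. The code of the selection was checked on simulated counts with counting error alone and no difference between thalli. That check cannot show how many contigs such differences would bring into the group. Python 3.11.15, pandas 2.3.3, scipy 1.17.1 and edgeR 4.0.16 (TMM scaling alone) were used. Alternatives were other scalings, pseudocounts, minimums, ratios and bands, cluster sums and intervals.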

Additional observations from a re-analysis of the deposited data

How the results depend on the processing

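The number of contigs in the group followed its limits more than the scaling. It was 250 with library totals, 330 with the upper quartile, 301 with TMM, 310 with the authors' deposited scaled values, 293 and 341 with pseudocounts of 0.5 and 5, and 252 with at least 10 reads required in each other library, against 299. Of the 299, 237 remained with library totals, 250 with the upper quartile and 264 with a pseudocount of 5. It moved by over 1.5 times with a minimum at 24 h of 10 scaled counts (514), 200 (182) or none (919), with a 24 h ratio of at least 3 (661) or 8 (72), with a band of 1.5-fold (100) or 3-fold (830), and with intervals inside the limits (47). Clusters whose sum met the limits numbered 166, against 210 clusters that held a member. Asking for the band at 36 h alone gave 587 contigs and at 72 h alone 738, both chosen after seeing the data. The number of several-contig clusters with a member whose sum met the limits stayed between 45 and 56 over the scalings and pseudocounts tried, against 55. The clusters they were counted among changed as well. With library totals 45 of 86 met the limits, and with a pseudocount of 5 it was 56 of 119, against 55 of 103.

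Library totals moved the median log2 ratio of 24 h over all contigs with enough reads to -0.15, against -0.01, and the upper quartile moved that of 72 h to -0.25, against -0.08. For the same 299 contigs the median ratio was then 5.07 at 24 h and 1.04 at 72 h. With the upper quartile, 158 of the 299 lay above the control at 72 h, against 193. The size factor of the 72 h library was then 1.001, against 0.890, which lowers the 72 h ratios of contigs with reads there. The 36 h and 72 h ratios of the named contigs are given with the main scaling alone. The 24 h ratios of 24 named contigs with reads in both libraries, part of them singled out after their values were seen, changed by a factor of 0.902 to 1.05 over the other scalings. The new ratio lay outside the counting interval for 8 of the 24 contigs with library totals, 6 with the upper quartile, 4 with the authors' deposited scaled values and 0 with TMM. With library totals c42711_g1_i1 was at 11.4, c28294_g1_i1 at 16.7, c50694_g1_i1 at 7.33 and c28079_g1_i3 at 4.61, and with the upper quartile c28079_g1_i4 passed the limit of 4, at 4.11. No paired analysis was possible because each condition has 1 library, and no library could be left out for the same reason. Contigs under about 100 reads are limited by depth.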

Other observations

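Clusters whose sum met the limits numbered 166 over the whole assembly, and 4 of them held no contig that met them alone. Below the minimum of 50 scaled counts at 24 h, 620 further contigs met the limits on the ratios. The 210 clusters of the 299 contigs belonged to 203 components of the assembly (the c number), and 7 components held several of these clusters.

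A few clusters of many reads held a member whose reads were a small part of the whole. The cluster c27628_g4, with 19 contigs, had sums of 27619 scaled counts in the control, 27818 at 24 h, 26416 at 36 h and 21169.6 at 72 h, and its 1 member took 0.18% of the cluster's reads at 24 h. In c27848_g2, with 13 contigs, the sum at 24 h was 0.38-fold the control while its 1 member, with 2.64% of the reads, was at least 4-fold higher. Both were singled out after their values were seen.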
